A study of Homo sapiens with 6 samples.

Results

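Keratins are the intermediate filament proteins of epithelial cells, and 10 keratin genes of simple and basal epithelia were taken from HS578T breast carcinoma cells with and without an EP300 expression vector. The genes were KRT5, KRT7, KRT8, KRT10, KRT14, KRT17, KRT18, KRT19, KRT80 and KRT81, and a probe set was taken where its annotated gene symbol was one of these. A probe set was found for 8 of the 10, with 1 each among the 21448 probe sets of the array. KRT17 and KRT81 had no probe set by symbol, gene identifier or transcript accession and were not analysed here.

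HS578T is an established human breast carcinoma line of mesenchymal appearance. The control group held 3 cultures with the empty vector pcDNA 3, and the EP300 group held 3 cultures with pcDNA 3 carrying a cDNA of EP300, a lysine acetyltransferase and transcriptional co-activator. All 6 cultures were selected pools of stable transfectants, and all were grown in low-glucose DMEM with fetal calf serum, glutamine, insulin and G418. Each culture was hybridised to its own Affymetrix whole-transcript array. The labels do not say whether the cultures of a group came from 1 pool, so the spread measured is that between cultures. The level of EP300 itself was not analysed here, so the vector labels were not checked against it.

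Keratin filaments are built from obligate pairs of a type I (acidic) and a type II (basic to neutral) protein. KRT8 with KRT18 forms the primary pair of simple epithelia, to which KRT7 and KRT19 are added in ducts, while KRT5 with KRT14 marks basal cells. Carcinoma cells of mesenchymal appearance are rich in vimentin filaments and often hold fewer keratins. The type II genes lie together on chromosome 12 and the type I genes on chromosome 17, apart from KRT18, a type I gene that lies beside KRT8 on chromosome 12.

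The members were chosen by gene family with earlier EP300 minus control differences in view, that of KRT18 among them, so their differences in this comparison are given as descriptions without a test. Values are the authors' deposited values, taken as log2 from their range, so that 1 unit is read as a 2-fold step. A level is placed against the quartiles of the arrays, whose lower quartile was 3.47 to 3.50, median 4.46 to 4.50 and upper quartile 6.36 to 6.41. Levels of single probe sets were not set against each other, since their probes differ in response. Means over a list of marker genes are given to compare the groups, not to compare lists. The arrays were alike in overall profile, with Pearson r over all probe sets from 0.977 to 0.981. EP300 replicates 2 and 3 lay apart on the second principal component (-41.3 and 35.2, against -6.17 to 7.52 for the other arrays), and each keratin difference is therefore also given with single arrays left out.

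The keratins differed in direction and size. KRT18 was 2.16-fold lower in EP300 cultures, the means of the type II genes KRT7, KRT8 and KRT80 were 1.41-fold, 1.29-fold and 1.22-fold higher, and the other 4 lay near or below the lower quartile with groups that overlapped. By limma over all probe sets, 0 of the 21448 (0%) passed an adjusted p of 0.05, and so did 0 of the 8 keratins. At an unadjusted p below 0.05 there were 2 keratins, KRT18 lower and KRT7 higher, beside 1399 (6.52%) of all probe sets, 3.07% lower and 3.45% higher. The groups did not overlap for the same 2 keratins, beside 12.2% of all probe sets, 5.91% lower and 6.3% higher. Because the contrast had served to choose the members, nothing is read from these counts.

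**Figure D1:**
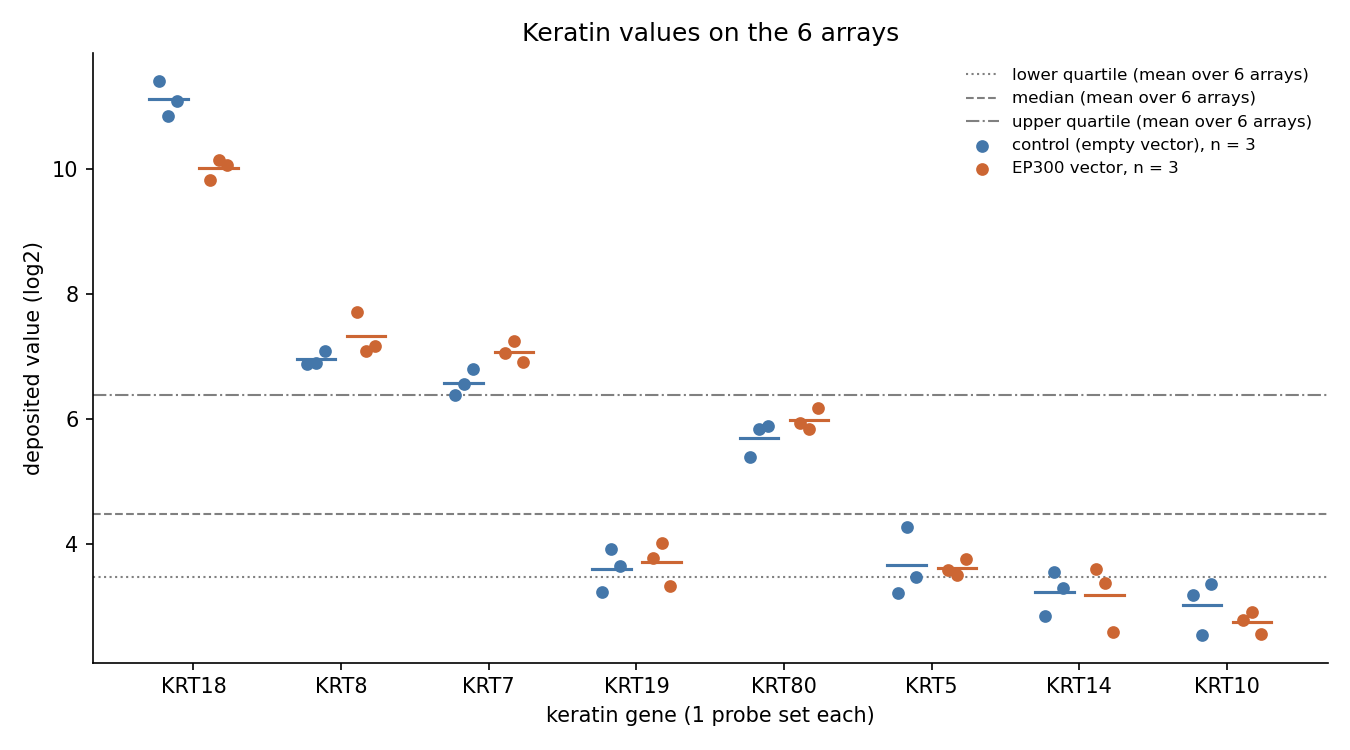
Deposited log2 values of 8 keratin probe sets on each array. Points are single arrays (blue, 3 control; orange, 3 EP300), short lines are group means and grey lines are the array quartiles. Only KRT18 and KRT7 have groups that do not overlap, KRT18 with its EP300 arrays below 10.85 and KRT7 with its EP300 arrays above 6.81.

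KRT18, the type I keratin of simple epithelia, read 11.42, 10.85 and 11.10 in control replicates 1 to 3. In EP300 replicates 1 to 3 it read 9.82, 10.15 and 10.08. Every EP300 array thus lay below every control array, with a gap between the lowest control and the highest EP300 array, and all 6 values lay above the upper quartile. The means were 11.13 ± 0.28 and 10.02 ± 0.17 (SD, n = 3 each), a difference of -1.11 ± 0.23 SE with a 95% interval from -1.62 to -0.59. It was the 22nd most negative difference of the 21448 probe sets, at a limma adjusted p of 0.592. As this difference was in view when the members were chosen, its rank is a description only. Leaving out single arrays gave -1.25 (without control replicate 2) to -0.96 (without control replicate 1).

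KRT8, the type II partner of KRT18 in the filament, read 6.89, 6.90 and 7.09 in control cultures and 7.72, 7.09 and 7.18 in EP300 cultures. EP300 replicate 1 stood above the other arrays, and EP300 replicate 2 lay just under control replicate 3, so the groups overlapped. All 6 values were above the upper quartile. The means were 6.96 ± 0.11 and 7.33 ± 0.34 (SD, n = 3 each), and the difference of 0.37 ± 0.24 SE had a 95% interval from -0.16 to 0.90. Without EP300 replicate 1 the difference was 0.17, and the largest value, 0.49, was found without EP300 replicate 2.

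KRT7, a type II keratin of ductal and glandular epithelia, read 6.38, 6.57 and 6.81 in control cultures and 7.07, 7.25 and 6.92 in EP300 cultures. The 3 EP300 arrays lay above the 3 control arrays, with control replicate 3 and EP300 replicate 3 close to each other. All 6 values were above the upper quartile, control replicate 1 only just. The difference was 0.50 ± 0.22 SE (95% interval 0.01 to 0.98), which is 1.41-fold, and it ran from 0.39 without control replicate 1 to 0.61 without control replicate 3.

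KRT19, a type I keratin of ductal epithelium, read 3.24, 3.92 and 3.66 in control cultures and 3.78, 4.01 and 3.34 in EP300 cultures. Both groups straddled the lower quartile and no array reached the median. The difference of 0.11 ± 0.26 SE was smaller than the SD of either group (0.35 and 0.34), and it changed sign without control replicate 1 (-0.08) and without EP300 replicate 2.

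KRT80, a type II keratin found in many epithelia near cell junctions, read 5.39, 5.84 and 5.89 in control cultures and 5.95, 5.84 and 6.18 in EP300 cultures. All values lay between the median and the upper quartile. EP300 replicate 2 fell within the control range, so the groups overlapped. The difference was 0.28 ± 0.23 SE (95% interval -0.23 to 0.79), and without control replicate 1, the lowest array, it was 0.12.

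**Figure D2:**
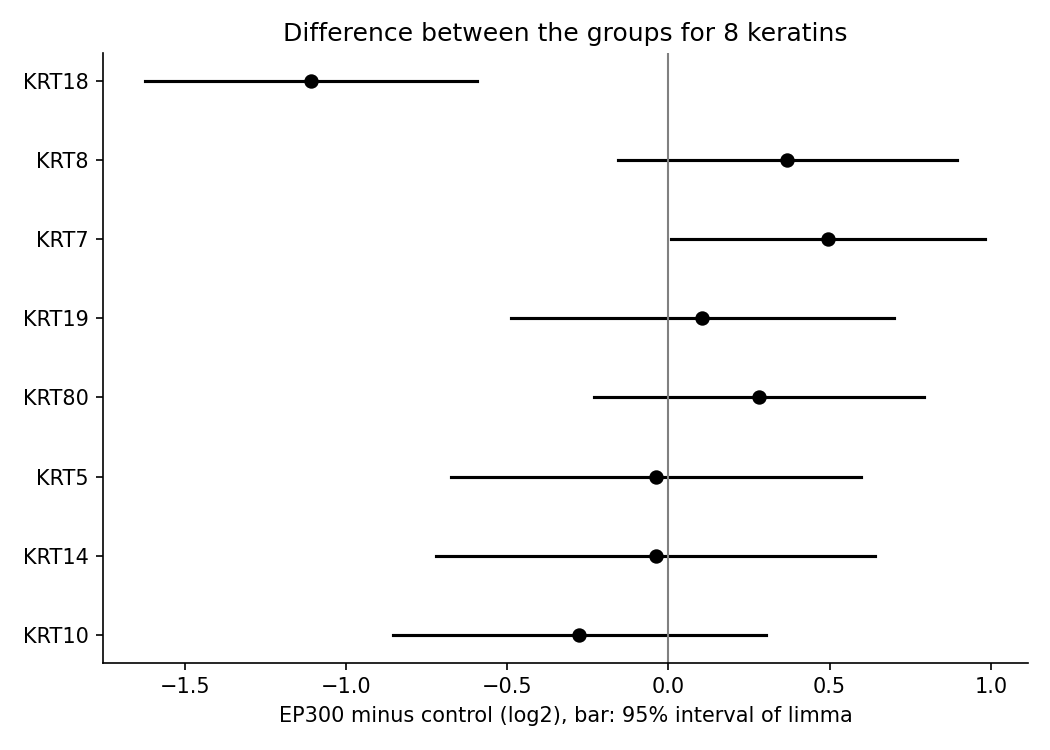
EP300 minus control difference in log2 for each of 8 keratins, with the 95% interval from limma as a horizontal bar. KRT18 stands at -1.11, KRT7 at 0.50, and the other 6 between -0.28 and 0.37; the intervals show the size of the error and are no test.

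The keratins of basal and suprabasal cells lay low in both groups. KRT5, the type II keratin of basal cells, read 3.23, 4.27 and 3.48 in control cultures and 3.59, 3.51 and 3.77 in EP300 cultures. Control replicate 2 was the highest array for KRT5, and all 6 values were below the median. The difference of -0.04 ± 0.28 SE ran from -0.26 without control replicate 1 to 0.27 without control replicate 2.

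KRT14, the type I partner of KRT5, read 2.85, 3.55 and 3.30 in control cultures and 3.60, 3.38 and 2.60 in EP300 cultures. The groups covered nearly the same range, and 4 of the 6 values were below the lower quartile of their array. The difference was -0.04 ± 0.30 SE and ran from -0.24 without EP300 replicate 1 to 0.26 without EP300 replicate 3.

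KRT10, the type I keratin of suprabasal epidermis, read 3.19, 2.55 and 3.36 in control cultures and 2.79, 2.91 and 2.57 in EP300 cultures. Each of the 6 values lay below the lower quartile of its array. The difference of -0.28 ± 0.26 SE was within the control SD of 0.43, and ran from -0.52 without control replicate 2 to -0.11 without control replicate 3. Since the table gives no signal over background, a low reading of KRT5, KRT10, KRT14 or KRT19 cannot be told apart from background, and no fold is given for them.

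The spread between cultures differed among the keratins. The pooled within-group SD was 0.19 for KRT7, 0.23 for KRT80, 0.24 for KRT18 and 0.26 for KRT8, and 0.33 to 0.45 for the 4 low keratins, where the median of all probe sets was 0.31. The KRT18 difference was 4.72 times its pooled SD and that of KRT7 2.60 times, while those of KRT5 and KRT14 were 0.098 and 0.089 times theirs.

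The values of KRT18 and its filament partner were then set side by side within each array. The log2 value of KRT18 minus that of KRT8 was 4.54, 3.95 and 4.01 in control cultures and 2.10, 3.06 and 2.90 in EP300 cultures. Every EP300 array lay below every control array, and EP300 replicate 1 was the lowest. Only the change of this quantity can be read, as the probes of the 2 genes differ. It changed by -1.48, a 2.79-fold lower KRT18 to KRT8 ratio, and by -1.18 without EP300 replicate 1. Against KRT7 the KRT18 value changed by -1.60, with control values of 5.04, 4.28 and 4.30 and EP300 values of 2.75, 2.90 and 3.15. KRT8 minus KRT7 changed by -0.13, less than the SD of the EP300 group (0.41), and by -0.33 without EP300 replicate 1. These changes follow from the same arrays as the single differences and are no further evidence for them.

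**Figure D3:**
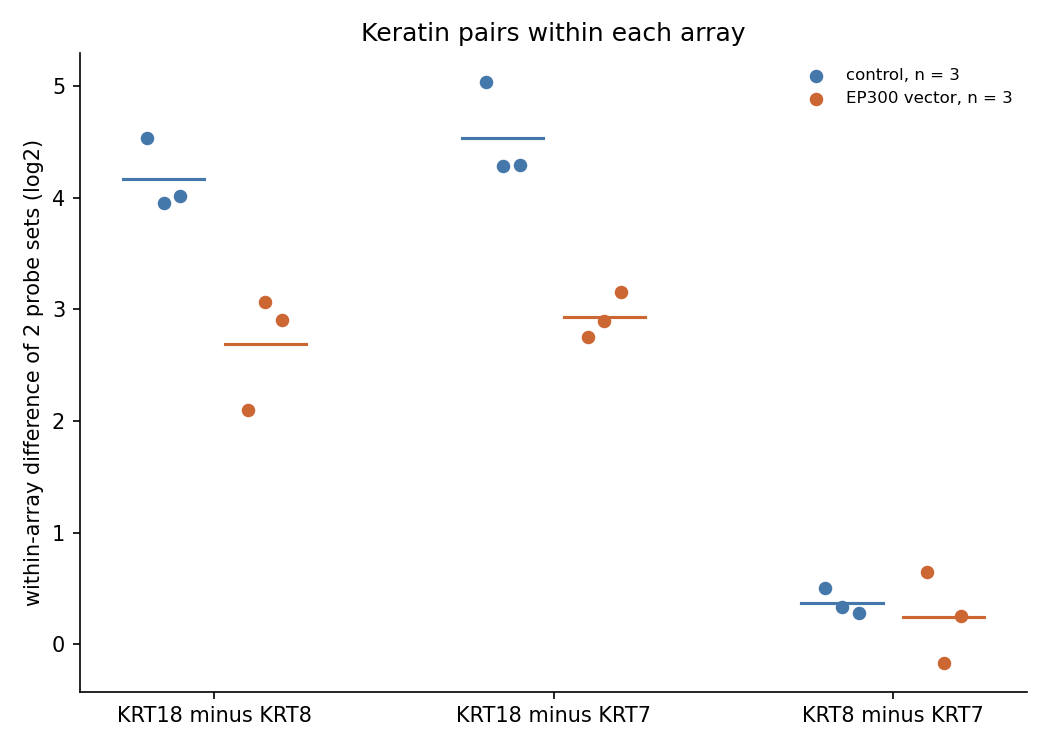
Within-array differences in log2 between pairs of keratin probe sets, 1 point per array (blue, 3 control; orange, 3 EP300), with group means as lines. KRT18 minus KRT8 and KRT18 minus KRT7 do not overlap between the groups, and KRT8 minus KRT7 overlaps.

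**Figure D4:**
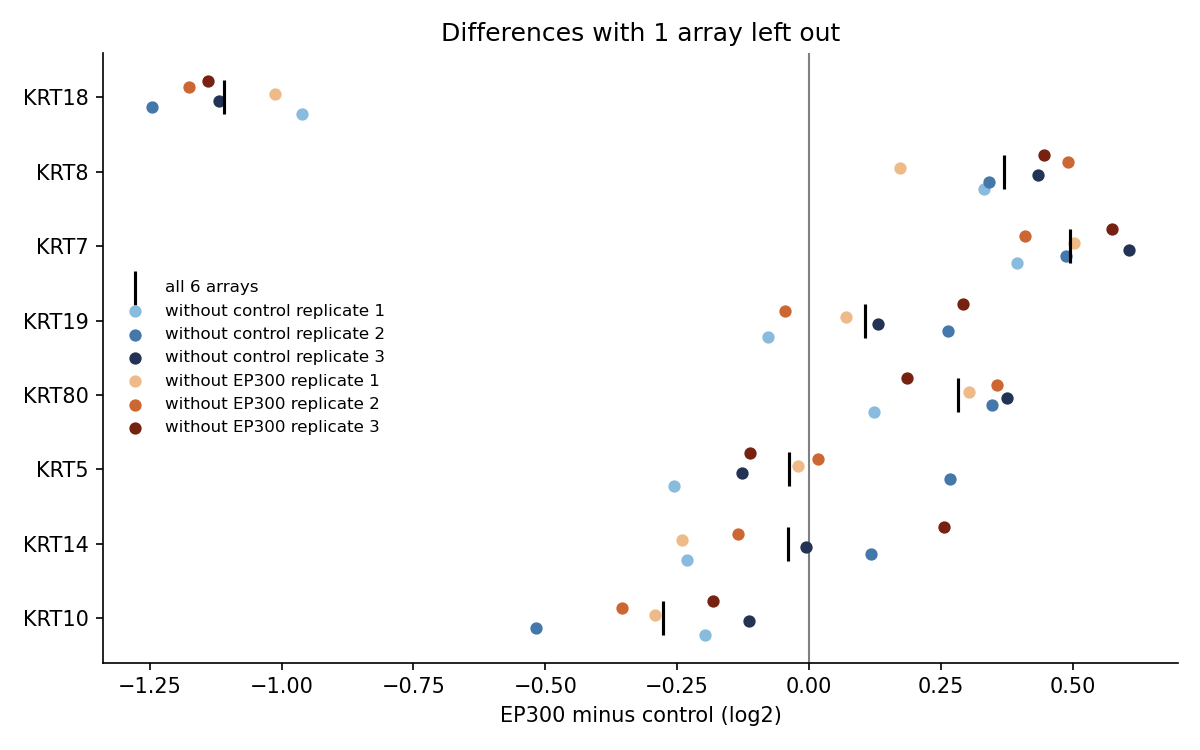
EP300 minus control difference in log2 for each keratin with all 6 arrays (black mark) and with 1 array left out (coloured points). KRT18 stays between -1.25 and -0.96, KRT8, KRT7 and KRT80 stay above 0, KRT10 stays below 0, and KRT5, KRT14 and KRT19 fall on both sides.

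Probe sets of KRT18 and KRT8 can take up signal of near-identical copies. The RefSeq gene table lists 68 KRT18 and 52 KRT8 pseudogenes. Of these, only KRT18P55 had a named probe set, which read 2.53 ± 0.05 in control and 2.61 ± 0.18 in EP300 cultures (SD, n = 3 each), below the lower quartile in both. Signal of the other copies was not separated from that of KRT18 and KRT8, and their part in the values was not tested. The annotated loci of KRT8 and KRT18 also overlap, and KRT7 has an annotated antisense gene, KRT7-AS.

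The measured genes next to the KRT8 and KRT18 pair on chromosome 12 did not share the KRT18 difference in size. On the KRT8 side lie the epidermal-type keratin genes KRT78 and KRT79, with differences of 0.37 ± 0.24 SE and 0.19 ± 0.22. Both lay under the median on all 6 arrays. KRT78 averaged 3.37 in control and 3.74 in EP300 cultures, and KRT79 3.75 and 3.94. Of the neighbours only EIF4B lay above the median. On the KRT18 side, EIF4B, which encodes a translation initiation factor, differed by -0.04 ± 0.24 at a level of 11.97 in control and 11.93 in EP300 cultures. TNS2, which encodes the focal adhesion protein tensin 2, lay below the lower quartile in both groups and differed by -0.25 ± 0.26. Adjusted limma p-values of the 4 neighbours ran from 0.842 to 0.987. Without 1 array KRT78 was at 0.18 (control replicate 3) and KRT79 at 0.04 (EP300 replicate 3). EIF4B was at 0.15 without EP300 replicate 1, and TNS2 at -0.06 without control replicate 3.

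Of the other keratin genes, 36 of 44 listed were measured, 17 of type II and 19 of type I. By limma 0 of the 36 passed the adjusted threshold, 0 had an unadjusted p below 0.05 (6.52% of all probe sets) and 0 had groups that did not overlap (12.2% of all probe sets). Their median difference was 0.05, with 23 higher and 13 lower, against a median of 0.00098 over all probe sets. Only 3 of them lay above the array median, KRT16, KRT31 and KRT76, and 17 lay below the lower quartile. KRT16, a stress-induced type I keratin, differed by -0.14 ± 0.27 SE and was at 0.07 without control replicate 2. The hair keratin gene KRT31 differed by 0.44 ± 0.25, and by 0.24 without control replicate 3. KRT76, a type II keratin of oral epithelium, differed by -0.41 ± 0.24, and by -0.23 without control replicate 1. KRT77 (0.46 ± 0.25) and KRT38 (-0.56 ± 0.29) had the smallest p among the rest with a level over the lower quartile, and KRT38 was at -0.28 without EP300 replicate 1. Adjusted limma p-values of the 5 ran from 0.792 to 0.950.

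**Figure D5:**
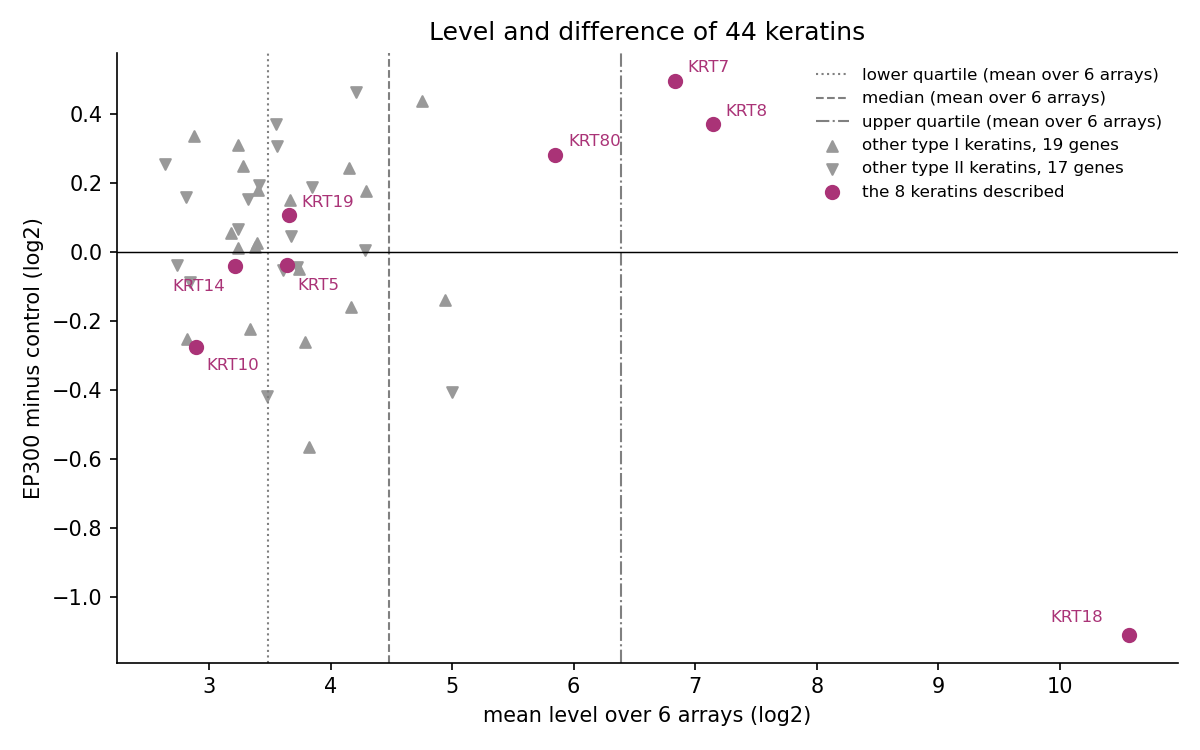
Mean log2 level over 6 arrays (x axis) and EP300 minus control log2 difference (y axis) of 44 keratin probe sets, with the array quartiles as vertical lines. The 8 keratins described are named, and 36 others are grey triangles, which lie between -0.56 and 0.46 and mostly left of the array median.

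Other intermediate filament genes were examined beside the keratins, since vimentin is the characteristic filament of mesenchymal cells. VIM read 18.60 on all 6 arrays without varying, so it gave no information on a difference. LMNA, which encodes nuclear lamins A and C and was picked after its value was seen, differed by 0.07 ± 0.20 SE. Of 14 measured genes 6 were higher, 7 lower and VIM equal, with a median of -0.0019. By limma 0 passed the adjusted threshold, and 1 had an unadjusted p below 0.05, beside 6.52% of all probe sets. That gene was INA, which encodes the neuronal filament protein internexin, at -0.50 ± 0.21 SE. INA and the neurofilament gene NEFL (-0.41 ± 0.21) were the 2 of the 14 whose groups did not overlap, beside 12.2% of all probe sets. Both are named after their values were seen, and their mean levels lay below the lower quartile. NEFH, another neurofilament gene, differed by 0.23 ± 0.21 (0.10 without EP300 replicate 2) and the lens filament gene BFSP1 by -0.36 ± 0.28 (-0.12 without control replicate 3).

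Keratin filaments attach to desmosomes, and 18 genes of the desmosome and of keratin linkers were measured. The median difference was 0.06, with 10 higher and 8 lower, and 0 passed the adjusted limma threshold, while 2 higher and 1 lower gene had an unadjusted p below 0.05, beside 3.45% and 3.07% of all probe sets. Groups did not overlap for 2 of the 18, DSG2 and JUP, both higher, a share near the 12.2% of all probe sets (6.3% higher). DSG2, a desmosomal cadherin, read 6.86, 6.32 and 6.50 in control and 7.26, 7.12 and 7.58 in EP300 cultures. Its difference was 0.76 ± 0.24 SE (limma adjusted p = 0.735). JUP, which encodes plakoglobin, read 3.68, 3.30 and 3.92 in control and 4.26, 4.12 and 5.09 in EP300 cultures. Only 1 array lay above the median, so background may enter these low readings. The JUP difference was 0.86 ± 0.30 (limma adjusted p = 0.741), and 0.56 without EP300 replicate 3. DSP encodes desmoplakin, the protein that ties keratin filaments to the desmosome, and is named after its value was seen. It read 8.98, 9.01 and 9.79 in control and 8.25, 9.10 and 8.11 in EP300 cultures, so that EP300 replicate 2 lay within the control range. Its difference was -0.77 ± 0.33 (limma adjusted p = 0.758), and -0.51 without control replicate 3. The cytolinker gene PLEC, also named after its value was seen, differed by -0.34 ± 0.21.

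Among 18 measured regulators of epithelial keratin genes the median difference was -0.01, with 8 higher and 10 lower. By limma 0 passed the adjusted threshold and 1 of the 18 had an unadjusted p below 0.05, a share near the 6.52% of all probe sets. That gene was KLF4, a transcription factor of epithelial differentiation, which read 5.91, 5.51 and 5.56 in control and 4.79, 5.15 and 4.24 in EP300 cultures. Its groups did not overlap, which held for only 1 of the 18, beside 12.2% of all probe sets (5.91% lower). The KLF4 difference was -0.93 ± 0.27 SE (limma adjusted p = 0.735). GRHL3, a grainyhead factor of epidermal differentiation, differed by 0.46 ± 0.23 (limma adjusted p = 0.791) at a level close to the lower quartile. The AP-1 genes FOSL1 and JUN, picked after their values were seen, differed by 0.11 ± 0.23 and -0.47 ± 0.36. FOSL1 was at -0.04 without EP300 replicate 3, and JUN at -0.17 without EP300 replicate 1.

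The label of the line was set against marker genes. All 6 mesenchymal markers (VIM, CDH2, FN1, ZEB1, AXL and CD44) lay above the upper quartile in both groups, with array means of 14.33 to 14.44 in control and 14.22 to 14.31 in EP300 cultures. Of 6 epithelial markers 1, CLDN7, was above the median, and 3 were below the lower quartile, with array means of 3.43 to 3.69 in control and 3.54 to 3.87 in EP300 cultures. CDH1, which encodes E-cadherin, is named after its value was seen. It read 2.54 ± 0.48 in control and 3.25 ± 0.67 in EP300 cultures (SD, n = 3 each), below the lower quartile in both. Its difference of 0.71 ± 0.36 SE was 0.33 without EP300 replicate 1. Of the 6 epithelial markers 4 were higher and 2 lower. Of 6 luminal mammary markers 4 had a mean level above the median (KRT18, KRT8, ESR1 and GATA3) and 0 below the lower quartile. ESR1 and GATA3 were above the median on only 4 of the 6 arrays each, KRT18 and KRT8 on all 6. Array means of the luminal markers were 5.92 to 6.03 in control and 5.67 to 5.93 in EP300 cultures. As the list holds KRT18, KRT8 and KRT19, these means include the KRT18 difference of -1.11 and are no further result. Groups did not overlap for 2 of the 6 luminal markers, beside 12.2% of all probe sets. These were the member KRT18 and FOXA1, which encodes a pioneer transcription factor and is named after its value was seen. FOXA1 averaged 4.43 in control and 4.04 in EP300 cultures, above the median on only 1 array. It differed by -0.38 ± 0.21 SE (limma adjusted p = 0.803). Of the 6 luminal markers 3 were higher, KRT8, GATA3 and KRT19, and 3 were lower. The groups also did not overlap for 3 of the 6 mesenchymal markers, 2 lower and 1 higher, and for 1 epithelial marker, which was higher. The 3 measured basal markers, KRT5 and KRT14 among them, were all under the median. The measured leukocyte (3) and endothelial (4) markers each had 1 gene above the median.

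The genes whose mean-centred values over the 6 arrays were closest to those of KRT18, in size as well as shape, were JAM3, CD81, HERPUD2, NCAM1 and NREP. Likeness was the root mean square distance between mean-centred log2 values, over 9060 named probe sets with a level above the median. The distance was 0.18 for JAM3 and 0.20 for NREP, where the centred values of KRT18 themselves had a root mean square of 0.59. JAM3 encodes a junctional adhesion molecule, CD81 a tetraspanin and NCAM1 a neural cell adhesion molecule. Their differences were -0.91, -0.93 and -0.96, which follow from the choice by likeness to KRT18 and are no further result. For KRT8 the closest were SCAF8, PMS1, MZT2B, MMP19 and ARHGEF28, at distances from 0.07 to 0.09 beside a root mean square of 0.28 for KRT8 itself. All share the same 6 arrays, and none of these 10 genes passed the adjusted limma threshold.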

How the data were processed

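Expression was measured on 6 Affymetrix arrays, 3 per group. The authors' deposited table holds 1 value per probe set and array, taken as log2 values because they ran from 1.79 to 19.93; no label states the scale. Partek 6.6 was used per the submitters' processing notes. The sources used here give no background correction, normalization or genome build, so no coordinates are printed. The platform annotation gave 1 gene symbol for 17709 of 21448 probe sets and none for 3739. EP300 minus control was estimated in R 4.3.3 with limma 3.58.1 (lmFit, then eBayes), with no filter or covariate and Benjamini-Hochberg adjustment over all probe sets. Errors of differences are moderated standard errors. The fit was tested on simulated data, and its recovery of differences the size of that of KRT18 is not given here. Of the probe sets, 19 varied by less than 0.001.

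The members and the gene lists were chosen with earlier results of these data known. Named genes were the keratins of the list, of each other list the 2 with the smallest p and a level over the lower quartile, other keratins over the array median, the 2 nearest measured genes on each side of KRT8 and KRT18, and 5 genes each with the likest pattern to KRT18 and KRT8. Alternatives were quantile normalization, median centring, a replicate block, only probe sets above the median level, a variance trend with robust estimation, 1 probe set for each gene, and each array left out. The number of arrays limits the precision.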

Additional observations from a re-analysis of the deposited data

How the results depend on the processing

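In all settings tried, KRT18 and KRT10 were lower and KRT7, KRT8 and KRT80 higher in EP300 cultures, and each of the 8 keratin differences moved by less than its pooled SD (KRT5, KRT10, KRT14 and KRT19 were not in the fit of probe sets above the median level). Scaling moved them little, with KRT18 from -1.12 to -1.10 and KRT8 from 0.34 to 0.37. The signs of KRT5, KRT14 and KRT19 changed only when an array was left out. The count of probe sets at an adjusted limma p below 0.05 was 0 in each setting except a variance trend with robust estimation, where it was 4, with none of the 8 keratins. The count at an unadjusted p below 0.05 was 848 of 10724 probe sets above the median level, a fit with fewer probe sets, and 1225 to 1383 with 1 array left out. With the replicate block it was 1295, and 0 passed the adjustment. Over all probe sets, deviations of same-numbered arrays from their group means correlated at -0.0015, -0.0053 and -0.0089. On the first principal component replicates 1 to 3 ran in the same order in both groups. They stood at -33.0, -18.6 and -13.5 in control and at 6.90, 27.0 and 31.3 in EP300 cultures. Whether same-numbered cultures were handled together was not tested.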
